A study of Mus musculus with 72 samples.

Results

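The 10 genes described here are regulators of skeletal muscle identity and size: the myogenic factors Myod1, Myog and Myf6, the MEF2 factors Mef2a, Mef2c and Mef2d, the growth inhibitor myostatin (Mstn), its receptor Acvr2b, the acetylcholine receptor subunit Chrna1 and the Runt factor Runx1. They were chosen by name, as their rows in a whole-gene table of 20561 genes and in an exonic and an intronic table of 19433 genes each, and all 10 were present in every table. Gastrocnemius muscle, a mixed calf muscle that is mostly fast fibres in mice, came from male C57BL/6J mice aged 8 weeks. Fed mice had eaten normal chow ad libitum and fasted mice had gone without food for 24 h, and all were housed with 12 h light and 12 h dark. Tissue was collected at 6 times, 4 h apart, at Zeitgeber time (ZT) 0, 4, 8, 12, 16 and 20, with lights on at ZT0. There were 3 libraries per feeding state and time, which gave 18 fed and 18 fasted muscle libraries. Liver of mice in the same groups gave another 36 libraries, used here only where a gene was also expressed there.

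Myogenic factors are basic helix-loop-helix proteins that pair with E proteins and bind E-boxes in the promoters of muscle genes, where MEF2 factors act with them. In adult muscle Myod1 marks satellite cells and fast fibres, Myog rises when a fibre loses its nerve, and Myf6 is the factor that mature fibres express most. Myostatin is a secreted member of the TGF-beta family that limits muscle mass through the type II receptor Acvr2b, type I receptors and SMAD proteins, and the acetylcholine receptor carries the signal from nerve to fibre.

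The promoters of 4 genes are shown: Myog and Chrna1 are textbook targets of E-box-binding factors, and Mstn and Runx1 were higher after fasting and, in the fasted state, peaked in the light phase. Each runs from 250 bases before to 50 bases after a start of transcription, from RefSeq on GRCm38.p6, and capitals mark each E-box, searched as CANNTG, which reads the same pattern on both strands. A promoter entry was matched for 8 of the 10 genes.
Myog, chr1:134289754-134290053, + strand: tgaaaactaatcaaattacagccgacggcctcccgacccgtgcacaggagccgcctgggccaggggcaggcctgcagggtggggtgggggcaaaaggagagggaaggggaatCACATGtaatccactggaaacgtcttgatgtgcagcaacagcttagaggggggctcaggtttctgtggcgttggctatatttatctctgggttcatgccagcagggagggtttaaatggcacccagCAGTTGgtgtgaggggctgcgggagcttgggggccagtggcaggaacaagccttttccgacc
Chrna1, chr2:73580289-73580588, - strand: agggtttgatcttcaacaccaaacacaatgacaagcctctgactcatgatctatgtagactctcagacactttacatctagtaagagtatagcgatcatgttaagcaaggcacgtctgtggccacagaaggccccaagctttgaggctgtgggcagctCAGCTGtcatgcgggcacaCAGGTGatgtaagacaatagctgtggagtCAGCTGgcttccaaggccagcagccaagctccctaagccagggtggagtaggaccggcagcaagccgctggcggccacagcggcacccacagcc
Mstn, chr1:53061390-53061689, + strand: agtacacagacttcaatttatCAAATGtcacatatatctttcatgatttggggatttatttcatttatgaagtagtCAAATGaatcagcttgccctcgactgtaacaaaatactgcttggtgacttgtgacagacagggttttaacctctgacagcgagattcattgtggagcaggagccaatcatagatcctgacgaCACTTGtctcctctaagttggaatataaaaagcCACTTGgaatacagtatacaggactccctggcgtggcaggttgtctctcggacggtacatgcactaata
Runx1, the upstream one of its 2 entries, chr16:92826025-92826324, - strand: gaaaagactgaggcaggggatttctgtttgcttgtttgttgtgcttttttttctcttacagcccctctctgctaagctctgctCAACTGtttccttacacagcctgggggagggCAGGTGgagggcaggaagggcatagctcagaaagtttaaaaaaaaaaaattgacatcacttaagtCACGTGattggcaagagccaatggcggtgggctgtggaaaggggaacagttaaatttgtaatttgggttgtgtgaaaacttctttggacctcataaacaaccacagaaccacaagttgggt
Myog held 2 E-boxes, which began at -138 and -12 relative to the start. Chrna1 held 3, of which those at -92 and -44 read CAGCTG, the form with a GC core that myogenic factors prefer. Mstn held 4, at -229, -174, -52 and -19. The upstream Runx1 promoter held 3, of which that at -71 read CACGTG, the form bound by CLOCK and BMAL1. An E-box is common: 72.3% of 32851 mouse promoters of the same length held at least 1, 16.3% held CAGCTG and 7.15% held CACGTG, forms that are themselves counted among the E-boxes. The MEF2 motif was searched on both strands as YTAWWWWTAR, where Y is C or T, W is A or T and R is A or G. It occurred in 3.19% of promoters and, among these genes, in that of Mef2a, beginning at -2. The Myog promoter held CTATATTTAT, which differs from this pattern only in its last base and was therefore not counted. The FOXO motif GTAAACA, searched on both strands, occurred in 3.65% of promoters and in no entry of these genes. These matches are letters in a window and were not tested as binding sites.

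Values are read as FPKM, a unit inferred from the values themselves. FPKM are levels scaled by transcript length and library size, so that levels can be compared between genes per length. Differences, given ± SE, are fasted minus fed values of log2(FPKM + 0.5), a scale that understates the change of genes near or under 0.5 FPKM. A change counts as passed where the Benjamini-Hochberg adjusted p of limma's test over all tested genes is under 0.05. Depth, estimated from the steps between low values, was a median of 23.7 M per muscle library (17.2 to 28.2), where 40.3 to 48.8% of low values came out within 0.1 of whole reads. The depth was chosen by how near these same values came to whole reads, so that share is no separate check of it. Fasting moved most of the muscle transcriptome: of 11223 genes tested, 30.3% were higher and 51.8% lower, with a median of all genes of -0.17. With median-of-ratios scaling that median was -0.017 and the share of higher genes among those that passed was 48.8%, against 36.9% as deposited. In 4 muscle libraries, 1 each from fed ZT4, fed ZT16, fasted ZT4 and fasted ZT8, level fell with transcript length more steeply than in the rest, with slopes of -0.261 to -0.1 against -0.0387 to 0.0718. Hepatocyte transcripts were present in the 12 fed muscle libraries of ZT0 to ZT12, where 7 marker genes summed to 41.8 to 182 FPKM, against 0.189 to 3.89 in fed muscle at ZT16 and ZT20 and at most 4.27 in fasted muscle. In liver itself, albumin was at 42057 ± 4841 FPKM in fed mice, while Myod1, Myog, Myf6, Mstn and Chrna1 had means of at most 0.0231 FPKM in either state. Values at ZT16 and ZT20 alone are therefore given where they change a call or the size of an effect most. Muscle fibre markers summed to 68947 FPKM or more in every muscle library.

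Fasting changed 9 of the 10 genes in muscle, with 4 higher and 5 lower over the 6 times, beside 30.3% higher and 51.8% lower among all genes. Myod1 and Mef2c fell most. Mstn rose most on the log2(FPKM + 0.5) scale, whereas by the ratio of means Runx1 rose more (3.02-fold against 2.72-fold). In Myod1, Mef2c and Mstn no fasted library overlapped any fed one. Such separation of 18 fed from 18 fasted values occurred in 21.6% of all genes tested. Acvr2b, Myf6 and Chrna1 were lower, Runx1, Mef2d and Mef2a were higher, and Myog did not pass when averaged over the day. Runx1 met the filter of 1 FPKM in 3 libraries only through 9 fasted libraries, and Myod1 was at or over 1 FPKM in 18 fed libraries and 1 fasted library, so their passing the filter already depended on feeding state. The same holds among the listed genes named below for Msc and Arpp21, which met the filter through fasted libraries. It also holds for Hdac9, Smad6, Lrp4, Chrnd and Vcam1, which met it through fed ones. In whole tissue, fewer cells of a type and less RNA per cell cannot be told apart.

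**Figure D1:**
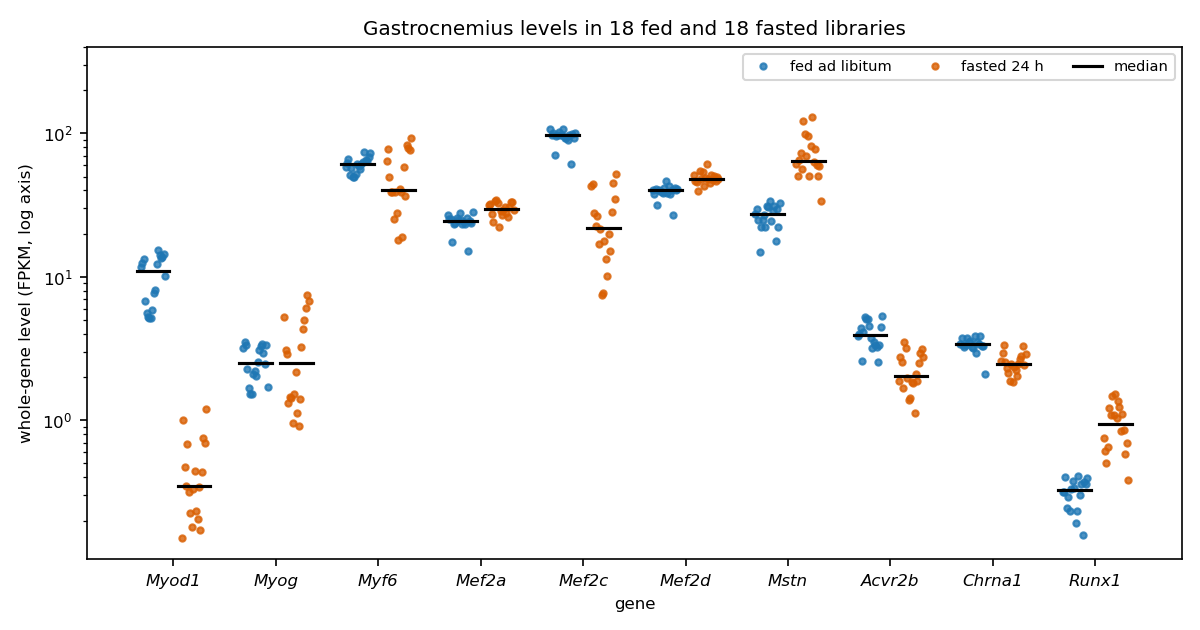
Whole-gene level of each gene (FPKM, log axis) in 18 fed (blue) and 18 fasted (orange) gastrocnemius libraries; points are libraries in order of time and black bars are medians. Myod1 and Mef2c lie lower and Mstn higher in fasted than in fed muscle without overlap, while both states of Myog have medians near 2.5 FPKM.

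Myod1 (ENSMUSG00000009471.4, mm10 chr7:46376474-46379099, + strand), the determination factor of the myogenic lineage, ranged from 5.15 to 15.3 FPKM in fed muscle with a median of 10.9. In fasted muscle it ranged from 0.151 to 1.19 FPKM with a median of 0.346. Every fasted library was below every fed one. The mean fell from 10.1 ± 3.78 to 0.455 ± 0.298 FPKM (SD, n = 18 each), which is 22.1-fold lower, and the log2 change was -3.43 ± 0.12 (adjusted p = 2.00e-23). It passed at each of the 6 times, with changes from -2.76 ± 0.21 at ZT4 to -4.20 ± 0.21 at ZT16. Pax7, which marks satellite cells, was at 0.507 ± 0.122 FPKM in fed and 0.161 ± 0.0662 FPKM in fasted muscle, and Myf5, the other early myogenic factor, at 0.695 ± 0.195 and 0.510 ± 0.136 FPKM. Both were under the filter and were not tested. Of 8 satellite cell markers 4 were tested. On the log2 scale 3 of these fell (Vcam1 by 0.72, Heyl by 0.54 and Cdh15 by 0.13) and Sdc4 rose by 2.10. Among all genes 30.3% were higher and 51.8% lower. The summed level of all 8 satellite cell markers, Sdc4 included, was 17.7 to 28.0 FPKM in fed and 35.1 to 78.2 FPKM in fasted muscle. The part of satellite cells in the fall of Myod1 was not tested.

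Myog (ENSMUSG00000026459.5, mm10 chr1:134289989-134292548, + strand), which drives terminal differentiation, had nearly equal medians of 2.50 FPKM in fed and 2.53 FPKM in fasted muscle. Its fasted values were the more spread, from 0.907 to 7.48 FPKM against 1.52 to 3.53 FPKM in fed muscle, so that fasted libraries lay both below and above all fed ones. Averaged over the day the log2 change was 0.04 ± 0.14 (adjusted p = 0.784). By time, the change was -0.89 ± 0.21 at ZT12 (adjusted p = 5.61e-04) and +1.30 ± 0.21 at ZT20 (adjusted p = 1.29e-05), and the other 4 times did not pass. At ZT12 the fasted libraries read 1.12, 0.907 and 1.41 FPKM and the fed ones 2.03, 2.54 and 3.11 FPKM. At ZT20 the fasted libraries read 6.03, 7.48 and 6.76 FPKM and the fed ones 2.46, 3.34 and 1.71 FPKM. All fasted libraries were below the fed ones at ZT12 and above them at ZT20. With ZT16 and ZT20 alone Myog was higher in fasted muscle, by 0.81 (adjusted p = 0.00194).

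Myf6 (ENSMUSG00000035923.4, mm10 chr10:107492853-107494737, - strand), also called MRF4, was the most abundant of the 3 myogenic factors per length. It ranged from 49.3 to 74.2 FPKM in fed muscle with a median of 61.5, and from 18.2 to 92.1 FPKM in fasted muscle with a median of 40.1. The ranges overlapped, and the fasted range reached past the fed one at both ends. The change over the day was -0.42 ± 0.13 (adjusted p = 0.00303), and Myf6 passed at ZT4, ZT8 and ZT12, where it was lower by 0.63, 0.98 and 0.91. The ZT4 call was lost with median-of-ratios scaling (adjusted p = 0.103), without the 4 steep libraries (0.0546) and without fasted replicate 5 (0.199), fed replicate 1 (0.0616) or fed replicate 3 (0.0943) of that time, and the ZT12 call without fasted replicate 5 (0.0596). The call over the day depended on scaling and on time: with median-of-ratios scaling the change was -0.25 (adjusted p = 0.0648), and with ZT16 and ZT20 alone it was 0.0049 (adjusted p = 0.981).

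The list of partners and inhibitors of myogenic factors held 25 other genes, 20 of them tested. Of these 4 rose, 9 fell and 7 did not pass, beside 30.3% higher and 51.8% lower among all genes. Their median was -0.14 against -0.17 for all genes. The repressors Bhlhe41 and Bhlhe40, clock-controlled proteins of the same helix-loop-helix class, fell from 11.0 ± 2.68 to 1.12 ± 0.421 FPKM and from 33.9 ± 9.67 to 5.94 ± 2.39 FPKM. Srf, a serum response factor that activates actin genes, fell from 19.0 ± 1.06 to 13.3 ± 1.39 FPKM. Msc, a repressor that competes for E-boxes, rose from 0.631 ± 0.177 to 1.82 ± 0.533 FPKM. Eya4, a transcriptional coactivator and phosphatase, was at 9.50 ± 2.60 and 11.4 ± 3.17 FPKM and did not pass (adjusted p = 0.0588). With ZT16 and ZT20 alone 2 members rose and 8 fell.

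Among the MEF2 factors, Mef2c moved opposite to Mef2a and Mef2d. Mef2c (ENSMUSG00000005583.16, mm10 chr13:83504034-83667080, + strand), which activates sarcomere and metabolic genes of fibres, ranged from 60.9 to 107 FPKM in fed muscle with a median of 96.9. In fasted muscle it ranged from 7.48 to 52.2 FPKM with a median of 22.0. The highest fasted library lay below the lowest fed one. The mean fell from 94.3 ± 11.4 to 25.2 ± 13.7 FPKM (SD, n = 18 each), 3.74-fold lower, with a log2 change of -2.08 ± 0.16 (adjusted p = 8.70e-14). It passed at all 6 times, from -1.16 ± 0.28 at ZT20 to -3.13 ± 0.28 at ZT8.

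Mef2a (ENSMUSG00000030557.17, mm10 chr7:67231163-67372858, - strand) ranged from 15.1 to 28.1 FPKM in fed and from 22.1 to 34.4 FPKM in fasted muscle, with medians of 24.7 and 29.9. Mef2d (ENSMUSG00000001419.17, mm10 chr3:88142372-88172086, + strand) ranged from 27.2 to 46.6 FPKM in fed and from 39.4 to 61.6 FPKM in fasted muscle, with medians of 40.1 and 48.2. For both, the fasted libraries lay higher but overlapped the fed ones. The log2 change was +0.30 ± 0.063 for Mef2a (adjusted p = 6.18e-05) and +0.32 ± 0.052 for Mef2d (adjusted p = 1.46e-06), equal to 1.23-fold and 1.25-fold higher means. By time, both passed at ZT4 and ZT16, the times that held fed libraries with a steep length slope, in which both genes had their 2 lowest fed values. Without the 4 steep libraries both passed at ZT0, ZT8, ZT12 and ZT20, while Mef2a at ZT16 was +0.20 (adjusted p = 0.0607). With 1 library left out, both lost the ZT4 call without fed replicate 1 (adjusted p = 0.0672 for Mef2a and 0.157 for Mef2d), Mef2d also without fasted replicate 4 (0.147) or 5 (0.0685), and Mef2a lost the ZT16 call without fasted replicate 5 (0.0773) or fed replicate 5 (0.251). With median-of-ratios scaling both also passed at ZT0 and ZT20, and Mef2d at ZT8 and ZT12. Per length, fed muscle held most Mef2c, then Mef2d, then Mef2a. The fed range of Mef2c lay above the other ranges, and those of Mef2d and Mef2a touched. In fasted muscle Mef2d was highest by mean, and the fasted range of Mef2c overlapped both others.

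The list of MEF2 regulators held 24 genes, 22 of them tested. Of these 6 rose, 12 fell and 4 did not pass, beside 30.3% higher and 51.8% lower among all genes. Their median was -0.27. Hdac9, a class IIa deacetylase that binds MEF2 and represses its targets, went from 0.804 ± 0.183 to 0.138 ± 0.0539 FPKM. It was tested only because 3 fed libraries and 0 fasted ones reached 1 FPKM, and it did not reach the filter with ZT16 and ZT20 alone. Camk2g and Camk2a, calcium-dependent kinases that act on class IIa deacetylases, fell from 48.8 ± 2.93 to 34.0 ± 2.55 FPKM and from 92.1 ± 8.65 to 34.9 ± 9.51 FPKM. Sik1, a kinase of class IIa deacetylases that is induced by cAMP, rose from 2.36 ± 0.430 to 31.6 ± 23.6 FPKM, without overlap. Ep300, an acetyltransferase that works with MEF2, did not pass (0.16 ± 0.091, adjusted p = 0.104).

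Mstn (ENSMUSG00000026100.6, mm10 chr1:53061640-53068079, + strand) ranged from 15.0 to 33.6 FPKM in fed muscle with a median of 27.2. In fasted muscle it ranged from 33.8 to 129 FPKM with a median of 64.2. The lowest fasted library, from ZT20, lay just above the highest fed one, from ZT12. The mean rose from 26.5 ± 5.15 to 72.1 ± 25.3 FPKM (SD, n = 18 each), 2.72-fold higher, with a log2 change of +1.38 ± 0.13 (adjusted p = 5.84e-12). It passed at all 6 times, from +0.73 ± 0.28 at ZT20 (adjusted p = 0.0341) to +1.94 ± 0.28 at ZT4. The call at ZT20 was lost when fasted replicate 1 or 2 or fed replicate 1 or 2 of that time was left out, with changes of 0.56 to 0.96 over all leave-outs.

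Acvr2b (ENSMUSG00000061393.14, mm10 chr9:119402118-119434995, + strand), a type II receptor that binds myostatin and activins, moved the other way. It ranged from 2.53 to 5.35 FPKM in fed muscle with a median of 3.93, and from 1.13 to 3.51 FPKM in fasted muscle with a median of 2.04. The ranges overlapped. The log2 change was -0.72 ± 0.097 (adjusted p = 3.69e-08), with a mean 1.77-fold lower. By time it passed at ZT0, ZT8 and ZT12, with the largest change of -1.38 ± 0.20 at ZT8. Without the 4 steep libraries it also passed at ZT4, ZT16 and ZT20. The ZT0 call was lost with median-of-ratios scaling (adjusted p = 0.0821) and without fasted replicate 1 of that time (0.0539). With ZT16 and ZT20 alone the change was smaller, at -0.45 (adjusted p = 0.00303).

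Of 17 ligands, antagonists and processing factors of this pathway, 12 were tested. Of these 1 rose, 9 fell and 2 did not pass, beside 30.3% higher and 51.8% lower among all genes. Their median was -0.44. The one that rose was Furin, a protease that cleaves myostatin precursors, from 9.96 ± 1.26 to 22.8 ± 3.42 FPKM. Tgfb2, a TGF-beta ligand, fell from 4.25 ± 0.613 to 1.15 ± 0.238 FPKM. Gdf11, the ligand closest to myostatin in sequence, fell from 2.87 ± 0.787 to 0.840 ± 0.217 FPKM, and Fstl1, a follistatin-like secreted protein, from 25.6 ± 3.80 to 7.94 ± 2.46 FPKM. Follistatin (Fst), which binds and blocks myostatin and activins, was at 1.70 ± 0.494 FPKM in fed and 1.92 ± 0.757 FPKM in fasted muscle and did not pass (adjusted p = 0.277). With median-of-ratios scaling 3 rose and 7 fell, and Fst was among those higher, by 0.24 (adjusted p = 0.0204), whereas with ZT16 and ZT20 alone it was lower, by 0.34 (adjusted p = 0.0208).

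Of 22 other receptors and SMAD proteins, 21 were tested. Of these 7 rose, 10 fell and 4 did not pass, beside 30.3% higher and 51.8% lower among all genes. Their median was -0.12. Smad3, a SMAD that myostatin signalling phosphorylates, fell from 25.6 ± 4.93 to 7.43 ± 5.33 FPKM, and Smad6, an inhibitory SMAD, fell from 1.55 ± 0.295 to 0.556 ± 0.161 FPKM. Tgif1, a corepressor of SMADs, rose from 1.87 ± 0.308 to 14.2 ± 3.72 FPKM. Tgfbr3, a coreceptor also called betaglycan, rose from 6.14 ± 1.04 to 19.6 ± 3.60 FPKM. Acvr2a, the other type II receptor of myostatin and activins, was at 6.68 ± 1.34 and 5.86 ± 1.03 FPKM and did not pass (adjusted p = 0.0611).

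Chrna1 (ENSMUSG00000027107.3, mm10 chr2:73563215-73580338, - strand), the subunit that binds acetylcholine, was lower in fasted muscle. It ranged from 2.10 to 3.86 FPKM in fed muscle with a median of 3.38, and from 1.84 to 3.33 FPKM in fasted muscle with a median of 2.47. The ranges overlapped, and the lowest fed library was 1 of ZT20. The log2 change was -0.37 ± 0.061 (adjusted p = 1.55e-06), it passed at ZT4 to ZT16, and at ZT20 it was 0.0055 ± 0.13 (adjusted p = 0.975). With ZT16 and ZT20 alone the change was -0.19 (adjusted p = 0.182).

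Of 23 genes of the acetylcholine receptor and the synapse, 21 were tested. Of these 5 rose, 13 fell and 3 did not pass, beside 30.3% higher and 51.8% lower among all genes. Their median was -0.28. The filter was met in both states by 17 of the 21, through fed libraries only by 3 and through fasted ones only by 1. Musk, the receptor kinase that clusters acetylcholine receptors, rose from 5.23 ± 1.55 to 34.9 ± 11.8 FPKM, without overlap. Lrp4, the agrin receptor that activates it, fell from 1.79 ± 0.235 to 0.780 ± 0.111 FPKM, and Rapsn, the scaffold rapsyn, from 13.0 ± 1.29 to 6.75 ± 1.44 FPKM. Ache, acetylcholinesterase, fell from 14.2 ± 1.63 to 3.86 ± 2.16 FPKM. Utrn, utrophin, did not pass (-0.14 ± 0.097, adjusted p = 0.174). Among the other subunits, Chrne, of the adult receptor, fell by 0.91 and Chrnd by 0.28 on the log2 scale, Chrnb1 was higher by 0.21, and Chrng, of the fetal receptor, had means of 0.0477 FPKM in fed and 0.0365 FPKM in fasted muscle. With ZT16 and ZT20 alone 3 genes of the list rose and 10 fell. Of 6 Schwann cell and nerve markers 0 passed in limma's test, beside 30.3% higher and 51.8% lower among all genes. Among these markers 1 had an unadjusted p under 0.05 in that test. Their summed level varied from 58.9 to 374 FPKM in fed and from 29.7 to 753 FPKM in fasted muscle.

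Runx1 (ENSMUSG00000022952.17, mm10 chr16:92601466-92826149, - strand), a factor that denervated fibres induce, ranged from 0.160 to 0.410 FPKM in fed muscle with a median of 0.326. In fasted muscle it ranged from 0.381 to 1.53 FPKM with a median of 0.945. The states overlapped only through the lowest fasted library, from ZT20. The mean rose from 0.313 ± 0.0739 to 0.945 ± 0.343 FPKM (SD, n = 18 each), 3.02-fold higher, and the change on the compressed log2 scale was +0.80 ± 0.082 (adjusted p = 1.02e-10). It passed from ZT0 to ZT16, at most +1.15 ± 0.15 at ZT12, and not at ZT20 (+0.25 ± 0.15, adjusted p = 0.152). The call at ZT0 was lost when fasted replicate 1, fed replicate 3 or fed replicate 4 of that time was left out, with changes of 0.32 to 0.48 over all leave-outs. Macrophages and other leukocytes also express Runx1. Of 7 of their markers 6 were tested, of which 1 rose and 4 fell, beside 30.3% higher and 51.8% lower among all genes. The summed level of all 7 markers was 12.5 to 25.1 FPKM in fed and 9.53 to 21.4 FPKM in fasted muscle. Ptprc, the pan-leukocyte gene for CD45, was at 0.718 ± 0.278 and 0.363 ± 0.104 FPKM, and the 4 T and B cell markers each had a mean under 0.1 FPKM.

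Of the 5 RUNX partners 3 were tested, of which Cbfb, the common partner, rose from 33.0 ± 4.86 to 40.1 ± 7.70 FPKM, the corepressor Tle1 rose from 1.45 ± 0.290 to 5.09 ± 1.19 FPKM and Tle3 fell from 1.75 ± 0.502 to 1.31 ± 0.247 FPKM. A list of 15 other genes known to rise after denervation was chosen with earlier results of these data known. Of these, 8 were tested and all 8 rose, beside 30.3% higher among all genes. Their median was 2.89 against -0.17 for all genes. Of the 8, 7 were at or over 1 FPKM in 3 libraries of each state. Arpp21 met the filter only through fasted libraries, 11 of them against 2 fed ones. The 8 include the ubiquitin ligases Trim63, from 136 ± 26.7 to 3493 ± 541 FPKM, and Fbxo32, from 44.6 ± 14.6 to 651 ± 120 FPKM. Both are also known to rise on fasting. Gadd45a, a stress-response gene, rose from 11.7 ± 2.51 to 116 ± 24.4 FPKM and the cell cycle inhibitor Cdkn1a from 6.66 ± 2.22 to 124 ± 51.5 FPKM. The other 7 genes of that list, Chrng among them, did not reach the filter. Hdac4 stands both there and among the MEF2 regulators. Myog, which also rises when a fibre loses its nerve, did not pass over the day, as given above. Myod1, Chrna1 and Chrnd, which fell as given above, were not on that list. Whether any of these changes relates to nerve input was not tested.

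The number of the 10 genes that passed differed between times. It was 5 at ZT0, where 56.4% of all genes passed, 8 at ZT4 beside 60.4%, 7 at ZT8 beside 63.9%, 8 at ZT12 beside 63.1%, 7 at ZT16 beside 61.7%, and 4 at ZT20 beside 47.6%. At ZT20 only Myod1, Mef2c, Mstn and Myog passed, and the changes of Mef2c and Mstn were their smallest of the 6 times. The fasting effect itself differed among times in 5 of the 10 genes, by the interaction of feeding and time, beside 22.9% of all genes. These were Myog (adjusted p = 5.07e-05), Mef2c (0.00142), Runx1 (0.00302), Myod1 (0.00527) and Myf6 (0.0363). Myf6 lost that call when any 1 of 14 of the 36 libraries was left out, and Myod1 lost it with a pseudocount of 0.1 (adjusted p = 0.0671). Acvr2b (0.066) and Chrna1 (0.0736) did not pass with all libraries. Without the 4 steep ones both did (0.027 and 0.0223) and Myf6 did not (0.0536).

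**Figure D2:**
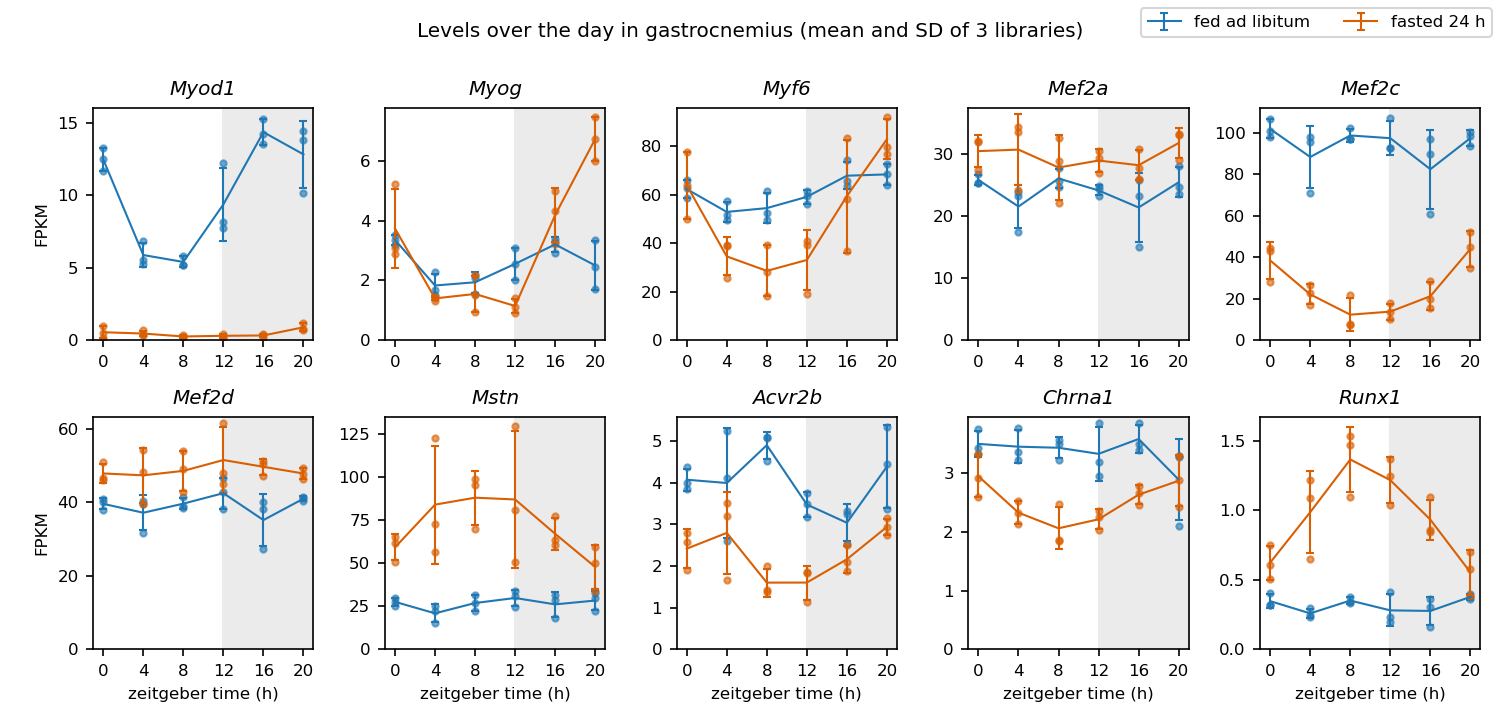
Whole-gene level (FPKM, axis from 0) by Zeitgeber time in fed (blue) and fasted (orange) gastrocnemius; points are libraries, lines join the means of 3 libraries, bars are SD and grey marks the dark phase. Fasted Myog climbs from 1.14 FPKM at ZT12 to 6.75 FPKM at ZT20, fasted Mef2c and Myf6 are lowest at ZT8, and fasted Runx1 is highest there.

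Daily rhythm was tested by fitting a 24 h cosine in each state. In fed muscle 1 of the 10 genes passed, beside 4.46% of all genes. That gene was Myod1 (amplitude 0.70 on the log2 scale, peak at ZT18.7, adjusted p = 1.51e-05). Its fed libraries read 5.20, 5.15 and 5.84 FPKM at ZT8 and 15.3, 14.2 and 13.6 FPKM at ZT16. The low and the high time did not overlap, and the mean was 2.66-fold higher at ZT16.

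In fasted muscle 8 of the 10 genes passed, beside 47.4% of all genes, and Mef2a and Mef2d did not. The largest amplitudes were those of Myog (1.06, peak ZT20.1, adjusted p = 7.20e-09), Mef2c (0.99, peak ZT21.8, adjusted p = 2.27e-08) and Myf6 (0.82, peak ZT20.4, adjusted p = 6.79e-08). Chrna1, Myod1 and Acvr2b peaked at ZT21.0, ZT21.7 and ZT22.5 with amplitudes of 0.22, 0.35 and 0.35. Mstn and Runx1 peaked in the light phase, at ZT8.5 and ZT9.6, with amplitudes of 0.42 each. The other 6 genes peaked in the dark phase, from ZT20 to ZT23.

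The libraries at the extremes show these patterns. Fasted Mef2c read 21.5, 7.48 and 7.73 FPKM at ZT8 and 45.0, 34.6 and 52.2 FPKM at ZT20. Fasted Myf6 read 39.3, 28.1 and 18.2 FPKM at ZT8 and 79.6, 76.7 and 92.1 FPKM at ZT20. In both genes every ZT20 library exceeded every ZT8 one. Fasted Runx1 read 1.47, 1.09 and 1.53 FPKM at ZT8 and 0.578, 0.697 and 0.381 FPKM at ZT20, in the opposite order and without overlap. Fasted Mstn read 99.0, 70.0 and 95.1 FPKM at ZT8 and 50.2, 59.2 and 33.8 FPKM at ZT20, also without overlap. By a test of any difference among the 6 times, which assumes no cosine, Mstn did not pass (adjusted p = 0.0755) and the other 7 did. Each time came from other samples, so that a rhythm here is a pattern over 1 cycle and over samples of one time each.

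Rhythm differed between fasted and fed muscle in 6 of the 10 genes, beside 32.6% of all genes: Mef2c (adjusted p = 3.33e-05), Runx1 (1.55e-04), Myog (5.35e-04), Myf6 (0.00109), Myod1 (0.0107) and Chrna1 (0.0112). On the compressed log2 scale, amplitude was larger in the fasted state for 5 of these and smaller for Myod1, by 0.357. The direction for Myod1 depended on the scale. By the ratio of its highest to its lowest time mean in FPKM, Myod1 varied more in fasted than in fed muscle (3.58 against 2.66). With a pseudocount of 0.1, where its fasted values are compressed less, the amplitude difference was -0.158 and the call of Myod1 was lost (adjusted p = 0.123). Mstn was at the threshold (adjusted p = 0.0503), and passed when any 1 of 10 libraries was left out and without the 4 steep libraries (0.0128).

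**Figure D3:**
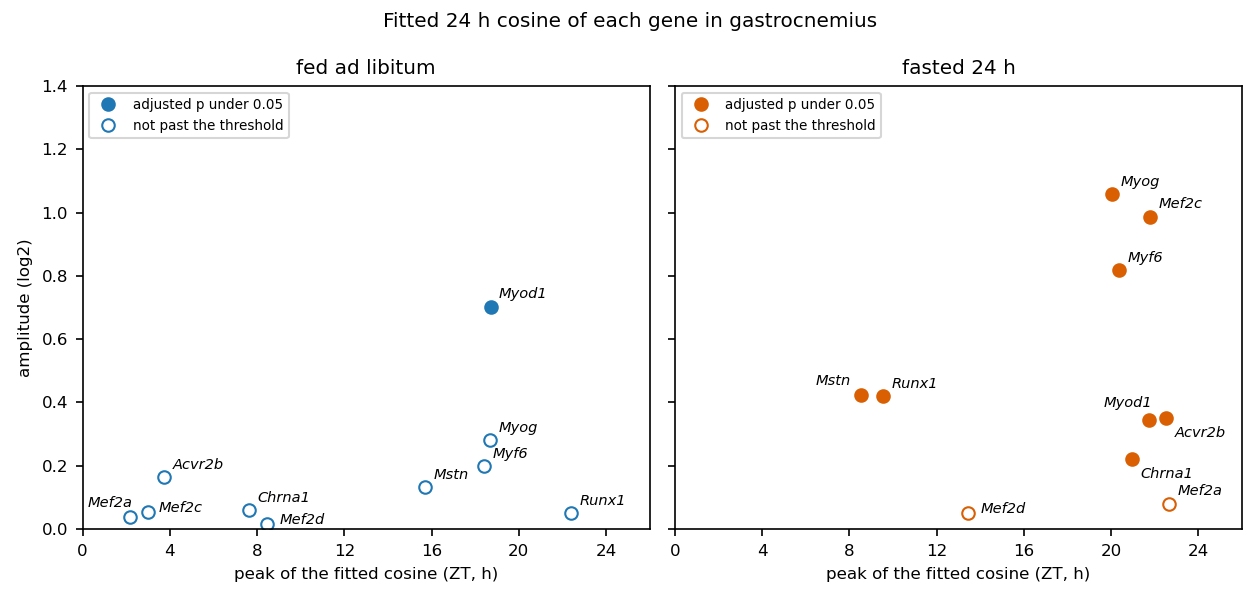
Amplitude (log2) against peak time (ZT, h) of the 24 h cosine fitted to each gene in fed (left) and fasted (right) gastrocnemius; filled points passed the rhythm test and open points did not. Myod1 is the filled point in the fed panel, and in the fasted panel 6 filled points lie at ZT20 to ZT23 and those of Mstn and Runx1 at ZT8.5 and ZT9.6.

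Intronic signal, which comes largely from RNA not yet spliced, was compared with exonic signal to ask whether both moved. In the exonic table the same 4 genes were higher and the same 5 lower as in the whole-gene table, beside 28.5% higher and 54% lower of 11017 genes. Of the intronic values, those of 8 genes passed the filter, all but Chrna1 and Runx1, whose intronic levels were under 1 FPKM in every library. Of these 8, 1 was higher and 4 lower, beside 26.8% and 42.9% of 9155 genes. Mef2c, among the 4 lower, met the filter through fed libraries alone, so its being tested already depended on feeding state. The difference of the 2 effects, exonic minus intronic, was higher in 2 and lower in 2 of the 8 genes, beside 26.9% and 25.7% of 8326 genes. The tables are scaled separately, so an intronic change is relative to the intronic signal of the library.

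Acvr2b fell more in introns than in exons. Its intronic level ranged from 3.45 to 6.90 FPKM in fed and from 0.416 to 2.25 FPKM in fasted muscle, without overlap, whereas its exonic ranges of 3.19 to 6.86 and 1.43 to 4.54 FPKM overlapped. The intronic change was -1.60 ± 0.094 and the exonic one -0.77 ± 0.10, a difference of +0.83 ± 0.12 (adjusted p = 5.03e-07).

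Mstn rose more in introns than in exons. Its intronic level ranged from 0.492 to 4.34 FPKM in fed muscle with a median of 2.01, and from 3.53 to 73.9 FPKM in fasted muscle with a median of 9.61. The 3 highest libraries were at 73.9 and 47.1 FPKM, both of fasted ZT0, and at 34.8 FPKM, of fasted ZT12, and the third library of ZT0 was the lowest of its state. The intronic change was +2.21 ± 0.28 and the exonic one +1.37 ± 0.13, a difference of -0.84 ± 0.27 (adjusted p = 0.00871), which passed in each of 36 fits that left out 1 library, at -0.96 to -0.69.

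For Mef2c the order of exonic and intronic change depended on the pseudocount. Its intronic level fell from 1.24 ± 0.256 to 0.144 ± 0.0734 FPKM, 8.62-fold lower, and its exonic level from 125 ± 15.2 to 33.1 ± 18.2 FPKM, 3.79-fold lower, both without overlap. It met the intronic filter through 17 fed libraries and 0 fasted ones. With 0.5 added before the log, exonic minus intronic was -0.68 ± 0.16 (adjusted p = 5.44e-04). With 0.1 added it was +0.36 (adjusted p = 0.0489), since the fasted intronic values are smaller than the larger pseudocount. Both fell, and which fell more is not settled by these fits.

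Myod1 fell in introns by 3.26 ± 0.28 and Myf6 by 0.91 ± 0.28 on the log2 scale, and for neither did the difference from the exonic change pass (adjusted p = 0.242 and 0.0697). In other settings, exonic minus intronic Myod1 passed with a pseudocount of 1 (-0.49, adjusted p = 0.0277). That of Myf6 passed with median-of-ratios scaling (0.53, adjusted p = 0.0379). Introns of Myod1, Myog and Myf6 total 765, 1065 and 622 nucleotides, and the intronic values of Myod1 and Myog were listed at 0 in 11 and 18 of 36 muscle libraries, so these intronic values rest on little sequence. Mef2a and Mef2d did not pass in introns (0.14 ± 0.087 and 0.15 ± 0.091). With median-of-ratios scaling both did, at 0.23 (adjusted p = 0.0313) and 0.30 (adjusted p = 0.00429), and Mef2d also did without the 4 steep libraries (0.15, adjusted p = 0.039). The intronic level of Mef2d was 22.8 ± 3.29 FPKM in fed and 25.6 ± 4.72 FPKM in fasted muscle. Its exonic level was 52.4 ± 5.64 and 63.4 ± 6.44 FPKM. Since the tables are scaled separately, these values do not give a ratio of intronic to exonic level. The exonic minus intronic difference of Mef2a, +0.14 ± 0.058 (adjusted p = 0.0374), was lost in 10 of the 33 fits without 1 library that kept the gene, and without the 4 steep libraries (adjusted p = 0.129). It was also lost with a pseudocount of 0.1 (0.077, adjusted p = 0.511) and with a replicate block (adjusted p = 0.0531). Mef2a met the intronic filter with only 1 fed and 2 fasted libraries.

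**Figure D4:**
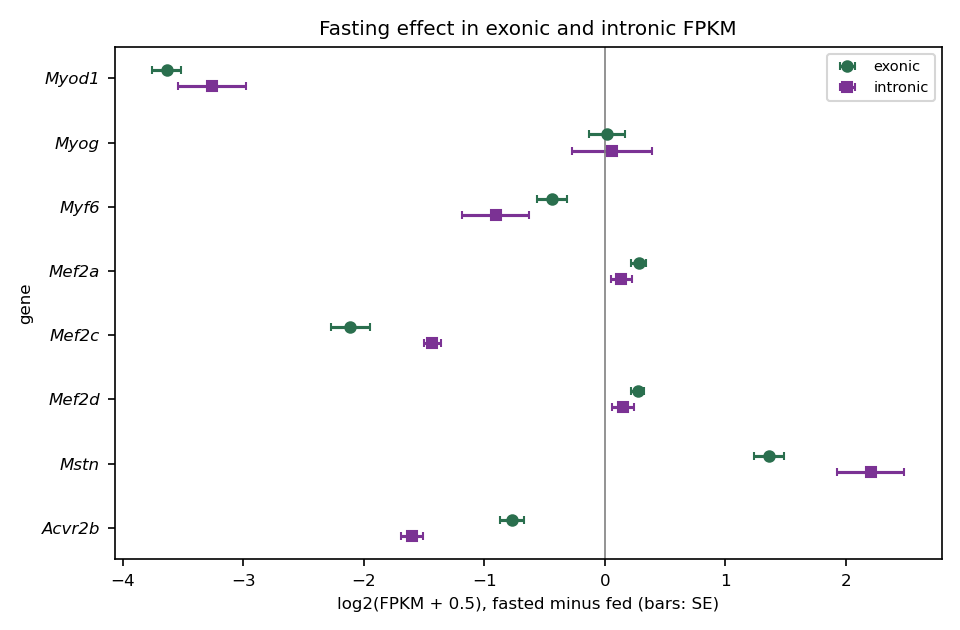
Fasting effect (log2(FPKM + 0.5), fasted minus fed) in exonic (green circles) and intronic (purple squares) values of the 8 genes tested in both tables; bars are SE. Intronic change exceeds exonic change for Mstn (2.21 against 1.37) and Acvr2b (-1.60 against -0.77).

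In liver, Mef2a and Mef2d reached the filter in both feeding states. Both were higher in fasted liver, beside 28% higher and 49.4% lower among all genes, and for both the fasting effect differed between the tissues, beside 70.3% of 9419 genes. Liver Mef2a rose from 3.99 ± 1.13 to 6.56 ± 0.875 FPKM and liver Mef2d from 4.98 ± 0.508 to 8.08 ± 1.55 FPKM (SD, n = 18 each). The rise, averaged over the 6 times, was larger than in muscle, with muscle minus liver differences of -0.40 ± 0.082 for Mef2a (adjusted p = 2.55e-05) and -0.31 ± 0.078 for Mef2d (adjusted p = 3.59e-04). Fed liver Mef2a read 1.75, 1.89 and 1.60 FPKM at ZT0 and 3.16 to 5.11 FPKM at the other times. Fasted liver at ZT0 read 7.64, 7.68 and 7.03 FPKM, so ZT0 adds to the averaged difference of Mef2a. The tissue difference was not fitted by time. Liver Acvr2b was at 0.821 ± 0.260 and 0.648 ± 0.144 FPKM in fed and fasted mice. It met the filter there through 6 fed libraries and 0 fasted ones, so these levels are given as a description. The other 7 genes did not reach the filter in liver, where Mef2c, the highest of them, was at 0.380 ± 0.144 FPKM in fed mice.

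Genes with the most similar patterns were found by Pearson's r of log2(FPKM + 0.5) over the 12 group means of muscle, a description in which fed and fasted means stand apart for most genes. Mef2c was closest to Cand2 (r = 0.997), Ppm1l and Dlat (0.996 each), and Mstn to Prom1 (0.995), Pprc1 (0.992) and Stt3b (0.99). Myog was closest to Ppargc1a (0.892), Mapre2 (0.887) and Bbs2 (0.866), and Myf6 to Asb15 (0.963), Stim2 (0.944) and Slc2a12 (0.936). Runx1 was closest to Ctnna1 (0.994) and Gak (0.992), and Myod1 to Pon1 (0.991), Ifit3b and Plekhh3 (0.99 each). For Chrna1 these were Grsf1 (0.972), Sdha (0.967) and Oxct1 (0.963), for Acvr2b Abi2 (0.973), Col8a1 (0.968) and Tbc1d16 (0.966), for Mef2a Lama2 (0.972), Stag2 (0.968) and Crebbp (0.961), and for Mef2d Gatad2b (0.984) and Notch4 (0.978).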

How the data were processed

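RNA of liver and gastrocnemius was isolated with TRIzol and libraries were built with the TruSeq v2 kit, per the labels' protocols, a kit that does not mark strand, so reads of a gene and of an antisense partner cannot be told apart. The authors deposited 3 tables of values (whole-gene, exonic, intronic), which are read here as FPKM. The unit was inferred from the values, which are not whole and sum to 322155 to 466133 per library in the whole-gene table. The build was mm10 and CASAVA 1.8.2 was used, per the submitters' processing notes. The aligner, counting tool and gene models were not given in the sources used here. Coordinates are those of GENCODE M21, 1-based, matched by symbol.

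Columns were matched to libraries by name and groups taken from the labels. The labels do not say whether replicates came from separate mice, and p-values cover only the spread between these samples. Genes that reached 1 FPKM in 3 or more libraries were tested on log2(FPKM + 0.5) by limma 3.58.1 under R 4.3.3, with moderated variances and a trend. The Benjamini-Hochberg adjustment ran over all tested genes. The fasting effect was fitted over 36 muscle libraries with time as a factor, effects by time and their interaction over 12 group means, rhythm with a 24 h cosine and sine per state, exonic minus intronic values within each library, and tissue differences over 24 group means of all 72 libraries. Whole reads could not be recovered, so no count test was run. The code was tested on simulated data.

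The genes and lists were chosen with earlier results of these data known. From each list, the 4 genes with the smallest adjusted p and the most changed of those not past the threshold were named, and for each of the 10 genes the 3 genes of most similar pattern that have a symbol; a microRNA gene model was left out and 1 other gene is not reported here. The other acetylcholine receptor subunits, Pax7, Myf5, Ptprc and the satellite cell markers were named after their values were seen. Alternatives were other pseudocounts, filters and scalings, a replicate block, ZT16 and ZT20 alone, each time alone, each library left out and, chosen after seeing the data, 4 libraries with a slope of level on length under -0.05 left out together. Python 3.11.15 with pandas 2.3.3, NumPy 2.4.6 and matplotlib 3.10.9 served for tables and figures.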

Additional observations from a re-analysis of the deposited data

Results flagged for a closer look

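The fasting effect in muscle differed among the 6 times, by the interaction of feeding and time in limma, in 5 genes: Myog (adjusted p = 5.07e-05), Mef2c (0.00142), Runx1 (0.00302), Myod1 (0.00527) and Myf6 (0.0363). Myog was lower at ZT12 and higher at ZT20, whereas Mef2c and Myod1 were lower at all 6 times and differed in size. Averaged over the 6 times, the fasting effect differed between the tissues, as muscle minus liver on the log2 scale, by -0.399 for Mef2a and -0.314 for Mef2d. Fed liver Mef2a was lowest at ZT0, as given above. For Acvr2b the value was -0.537. It is given as a description, since Acvr2b met the filter in liver through fed libraries alone. No test for a single outlying sample within a group was run on these groups of 3 libraries.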

How the results depend on the processing

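Over 14 settings, 773 of 834 values of single genes kept their side of the threshold without a reversal, as did 5006 of 5106 with 1 library left out. A reversal is a change of sign in a value that passed in the main or the other fit. Sign changes of values that passed in neither were not counted. Myog over the day, for example, was at -0.028 to 0.093 with 1 library left out. Reversals were 3: exonic minus intronic Mef2c was 0.361 with a pseudocount of 0.1, alone (adjusted p = 0.0489) or with an intronic filter of 0.1 (adjusted p = 0.0483), and Myf6 was 0.0049 with ZT16 and ZT20 alone. Counts of genes moved by over 1.5 times as follows. Exonic minus intronic, 1 gene was lower with a pseudocount of 0.1, with or without that filter; 4 were higher with median-of-ratios scaling, 1 with the replicate block, 1 without the 4 libraries of steep length slope, and 1 to 3 with 1 library left out. Intronic, 3 were higher with median-of-ratios scaling, 2 without the 4 steep libraries and 1 to 2 with 1 library left out. With ZT16 and ZT20 alone 3 were lower in the whole-gene table, where Runx1 did not reach the filter. With the libraries of a time fitted alone, 5 passed at ZT4 and 8 at ZT20; without the 4 steep libraries 7 passed at ZT20; with 1 library left out 3 to 6 passed at ZT0, where leaving out fasted replicate 1 gave the count of 3. The labels do not say whether shared replicate numbers pair the samples. Of 12 fed and fasted pairs of the same number and time, 4 correlated over 0.1 (-0.153 to 0.456). Pairs of unlike number were not set beside them, so these values cannot decide it. The replicate block also ended the calls of Mef2d and Myf6 at ZT4 (adjusted p = 0.0553 and 0.0637). Where a cause is not stated, the cause was not tested. Depth limits Runx1 and fasted Myod1, both mostly under 1 FPKM, and the intronic values of Myod1 and Myog.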

Other observations

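Several neighbours of these genes moved together with them or against them; they were chosen after their values were seen. Acvr1b, a type I receptor that pairs with Acvr2b for activin and myostatin, rose from 17.5 ± 4.94 FPKM in fed to 42.0 ± 8.66 FPKM in fasted muscle (SD, n = 18 each), a change of +1.26 ± 0.096 without overlap of the states, while Acvr1, a type I receptor of the BMP branch, fell from 6.07 ± 1.41 to 2.95 ± 0.720 FPKM. In liver Acvr1b was at 3.65 ± 0.831 and 3.53 ± 1.04 FPKM. Among class IIa deacetylases, which repress MEF2 targets, Hdac4 rose from 5.41 ± 0.879 to 8.68 ± 2.22 FPKM and Hdac5 from 16.0 ± 1.20 to 20.1 ± 1.63 FPKM, whereas Hdac7 fell by 0.29 on the log2 scale and Hdac9 was lower as given above.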
